A study of Mus musculus with 6 samples.

Results

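The 10 genes described here encode the core proteins by which mitochondria fuse, divide and are made, together with a kinase that marks damaged mitochondria: the fusion genes *Mfn1*, *Mfn2* and *Opa1*, the fission genes *Dnm1l*, *Fis1* and *Mff*, the biogenesis genes *Ppargc1a*, *Tfam* and *Nrf1*, and *Pink1*. They were chosen by symbol, with earlier results of these data known, and all 10 were found among the 51802 gene symbols of the files, under 83 of the 128603 listed transcripts. The samples were bulk RNA from the cochleae of mice at 2 months of age on the C57/BL6J background, a strain known for early age-related hearing loss that all samples share. Wildtype mice gave 3 samples (replicates 3, 4 and 5) and *Pou4f3(Δ/+)* mice, which carry a mutant and a wildtype allele of *Pou4f3*, gave 3 (replicates 1, 2 and 3). *Pou4f3* is a transcription factor of hair cells, and its knock-in allele Δ, a short deletion with a base change that truncates the protein, is a mouse model of the deafness DFNA15. The comparison asks whether cochlear levels of the genes that set mitochondrial number and shape differed between the genotypes. Nothing in the labels says whether a sample came from a single animal, so p-values measure the spread between these samples, which may in part be technical.

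Mitochondria form a network that is joined by fusion and cut by fission. The mitofusins Mfn1 and Mfn2 tether and fuse the outer membranes, and Opa1 fuses the inner membranes and holds the cristae in shape. The dynamin Dnm1l (Drp1) is recruited from the cytosol, by Mff and other receptors, to pinch the organelle apart. Ppargc1a (PGC-1α) co-activates Nrf1 and other factors that switch on nuclear genes for mitochondrial proteins, among them Tfam, which packages and transcribes the mitochondrial genome. In the cochlea, hair cells, spiral ganglion neurons and the marginal cells of the stria vascularis have high energy demands and are rich in mitochondria.

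Summed counts were 14295069 to 17696784 per sample. On the first principal component (32.5% of the variance), *Pou4f3(Δ/+)* replicates 1 and 2 lay at 23.2 and 40.2 and the rest between -21.5 and -11.7, so results are also given without them where they matter. *Pou4f3* itself had 68, 72 and 88 counts in wildtype and 66, 97 and 52 counts in *Pou4f3(Δ/+)*, which do not part the alleles and so do not check the labels. The hair cell markers *Myo7a* (8.13 to 10.3 FPKM, counted fragments relative to transcript length and library size) and *Ocm* (22.6 to 28.8 FPKM) were present in every sample. Beside them, the bone list summed to 454 to 812 FPKM, the erythroid list to 10517 to 15951 FPKM and the neutrophil list to 11945 to 14743 FPKM, so the tissue held much more than sensory epithelium. The 10 genes are used by nearly every cell type, and their levels average over all of these cells. In such bulk samples, fewer cells of a type and less RNA per cell cannot be told apart.

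Between *Pou4f3(Δ/+)* and wildtype cochleae, the level of each of these genes differed by less than the test could separate from the spread of the samples. Of the 10 genes, 0 had an adjusted p under 0.05 by edgeR's quasi-likelihood test, adjusted over the 17136 genes tested, of which 0% passed (0 genes). Without adjustment, 0 of the 10 had p under 0.05, against 7.64% of all genes tested. DESeq2 on the same counts also called 0 of the 10, against 0.373% of all genes. The log2 fold changes (*Pou4f3(Δ/+)* minus wildtype) ran from -0.15 for *Mfn2* to 0.13 for *Nrf1*, with 5 genes higher and 5 lower and a median of 0.01, beside -0.003 for all genes tested. The 95% intervals of the 10 genes, each for its gene alone, lay between changes of -19.1% and 27.4%. The data leave room for a change within a gene's own interval. *Mfn2* was the only gene of the 10 whose *Pou4f3(Δ/+)* values all lay on 1 side of the wildtype values, in CPM (counts at a common library size, scaled by edgeR's TMM method); 12.7% of all genes tested had groups that did not overlap in either direction and 6.59% had all *Pou4f3(Δ/+)* samples lower.

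**Figure D1:**
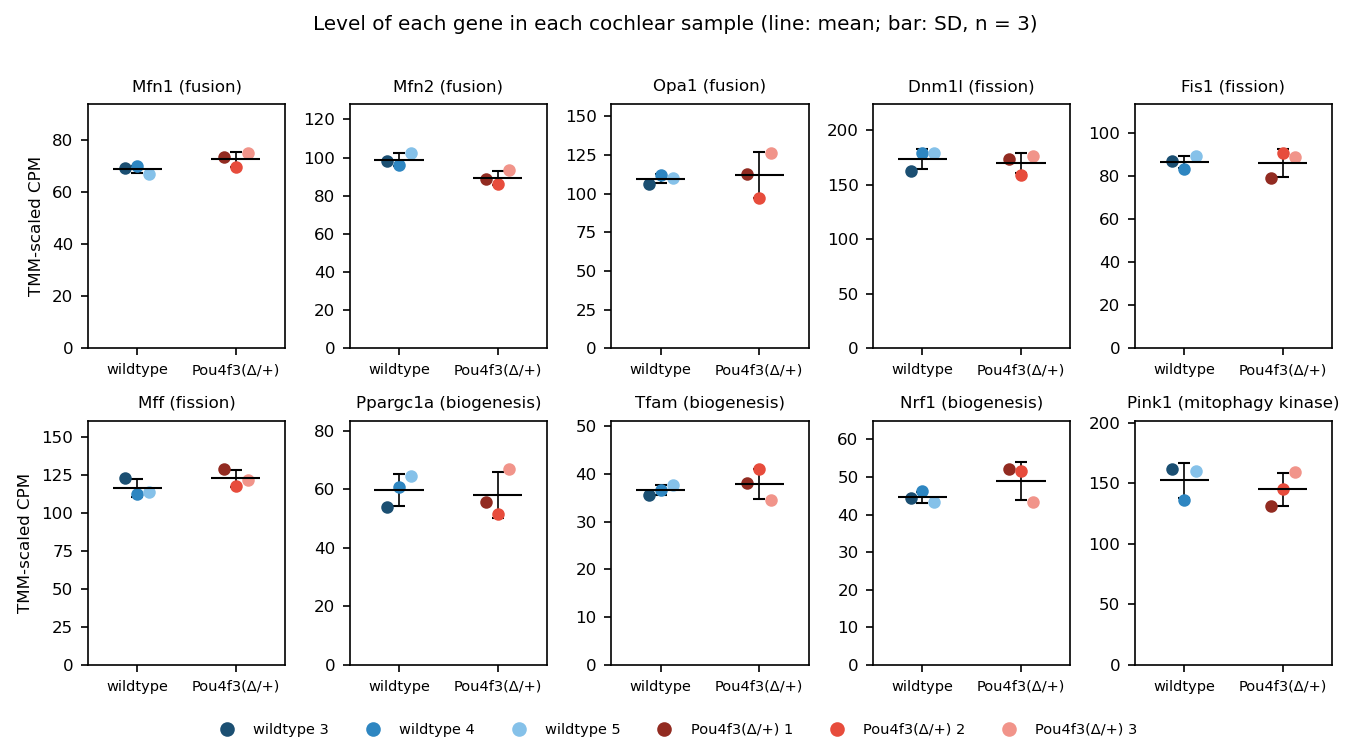
TMM-scaled CPM of each of the 10 genes (y axis, from 0) in the 3 wildtype (blue) and 3 *Pou4f3(Δ/+)* (red) cochlear samples, 1 panel per gene; points are samples, lines are group means and bars are the SD (n = 3). The groups overlap in every panel but that of *Mfn2*, where the *Pou4f3(Δ/+)* samples lie between 86.2 and 93.5 CPM and the wildtype samples between 96.2 and 102 CPM.

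Among the fusion genes, *Mfn2* (ENSMUSG00000029020, GRCm38 chromosome 4 from 147873599 to 147904704, minus strand), the mitofusin that also ties mitochondria to the endoplasmic reticulum, was at 98.3, 96.2 and 102 CPM in wildtype replicates 3, 4 and 5 and at 88.7, 86.2 and 93.5 CPM in *Pou4f3(Δ/+)* replicates 1, 2 and 3. All 3 *Pou4f3(Δ/+)* samples lay under the lowest wildtype sample. The group means were 99.0 ± 3.20 and 89.5 ± 3.69 CPM (SD, n = 3 each), which is a log2 fold change of -0.15 (standard error, SE, 0.07, unadjusted p = 0.0680, adjusted p = 0.649, edgeR), or -9.61% with a 95% interval from -19.1% to 0.928%. On the FPKM scale the samples kept this separation, at 23.3, 23.5 and 24.9 in wildtype and 21.2, 20.3 and 23.1 in *Pou4f3(Δ/+)*. *Mfn2* had the 1792nd smallest p of the 17136 genes, so a difference of this kind was common in these data. Without *Pou4f3(Δ/+)* replicates 1 and 2, where the lone *Pou4f3(Δ/+)* sample is assumed to vary like the wildtype samples, its log2 fold change was -0.08 (SE 0.10, edgeR).

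*Mfn1* (ENSMUSG00000027668, chromosome 3 from 32529465 to 32579239, plus strand), the mitofusin with the stronger tethering activity, did not show the pattern of *Mfn2*. It was at 69.2, 69.8 and 67.0 CPM in wildtype and at 73.4, 69.5 and 75.01 CPM in *Pou4f3(Δ/+)*, where replicate 2 fell inside the wildtype range. Its log2 fold change was 0.08 (SE 0.07, adjusted p = 0.777, edgeR), with an interval from -5.33% to 18.3%. The ratio of *Mfn2* to *Mfn1* CPM within a sample does not depend on how the samples are scaled. It was 1.42, 1.38 and 1.53 in wildtype and 1.21, 1.24 and 1.247 in *Pou4f3(Δ/+)*, so all 3 *Pou4f3(Δ/+)* ratios were below all 3 wildtype ratios. This ratio was picked after the values of both genes were seen and was given no test.

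The marker sums of the stria vascularis and B cell lists did not overlap between the groups, while those of the other lists did. The 3 stria vascularis markers (*Kcnq1*, *Kcne1* and *Kcnj10*, potassium channel genes of the endolymph-secreting epithelium) summed to 97.6, 99.2 and 105 FPKM in wildtype and 69.4, 55.2 and 88.6 FPKM in *Pou4f3(Δ/+)*, and none was at 0. As for *Mfn2*, *Pou4f3(Δ/+)* replicate 2 was lowest, replicate 1 next and replicate 3 nearest to wildtype, and wildtype replicate 5 was highest. The supporting cell list was also lowest in *Pou4f3(Δ/+)* replicates 2 and 1 (270 and 289 FPKM) and highest in wildtype replicate 5 (408 FPKM). The spiral ganglion neuron list was lowest in the same 2 samples (398 and 450 FPKM) but highest in *Pou4f3(Δ/+)* replicate 3 (558 FPKM). Both lists overlapped between the groups. Of the 3 stria vascularis markers, 2 had an unadjusted p under 0.05 and 0 an adjusted p under 0.05 (edgeR), and *Kcnj10* overlapped between the groups. Over all genes tested, 7.64% had an unadjusted p under 0.05 and 12.7% had groups that did not overlap. These shares also stand beside the marker counts below. The 7 B cell markers, none at 0, summed higher in *Pou4f3(Δ/+)*, at 115 to 142 FPKM in wildtype and 147 to 296 FPKM in *Pou4f3(Δ/+)*. Of these, 7 of 7 had an unadjusted p under 0.05, again with 0 after adjustment. The sum of the 5 bone markers, none at 0, overlapped between the groups, at 565 to 812 FPKM in wildtype and 454 to 653 FPKM in *Pou4f3(Δ/+)*, but 2 of 5 had an unadjusted p under 0.05 and 0 an adjusted one. These were *Sp7*, a transcription factor of bone-forming cells, at 19.0, 21.3 and 26.4 FPKM in wildtype and 14.9, 13.5 and 14.8 FPKM in *Pou4f3(Δ/+)*, and the collagen gene *Col1a1*, both without overlap and lower in *Pou4f3(Δ/+)*. The rest of the bone list overlapped between the groups. There *Bglap* was higher (log2 fold change 0.38, SE 0.37), *Ibsp* was at -0.21 (SE 0.25) and *Dmp1* at -0.01 (SE 0.11, edgeR). In the erythroid list 1 of 5 genes had an unadjusted p under 0.05 (*Slc4a1*, higher), with 0 after adjustment. The share of counts from genes of the mitochondrial genome was also lower, at 4.54%, 4.46% and 4.30% in wildtype and 3.84%, 4.002% and 4.26% in *Pou4f3(Δ/+)*, with no overlap between the groups. The part of cell composition, or of this share, in the *Mfn2* difference was not tested. The hair cell list, at 47.0 to 47.2 FPKM in wildtype and 40.9 to 49.8 FPKM in *Pou4f3(Δ/+)*, overlapped between the groups, with 0 of 7 genes under an unadjusted p of 0.05 and none at 0.

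*Opa1* (ENSMUSG00000038084, chromosome 16 from 29579334 to 29654884, plus strand), the inner membrane fusion dynamin, was at 106, 112 and 109.9 CPM in wildtype and spread more widely in *Pou4f3(Δ/+)*, at 113, 96.9 and 126 CPM. The *Pou4f3(Δ/+)* samples held both the lowest and the highest value of the 6. The log2 fold change was 0.03 (SE 0.10, adjusted p = 0.946, edgeR), with an interval from -12.4% to 19.4%. Without *Pou4f3(Δ/+)* replicate 3, the highest sample, it was -0.06, and without *Pou4f3(Δ/+)* replicates 1 and 2 it was 0.21 (SE 0.09, unadjusted p = 0.0606, edgeR).

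*Opa1* is made in forms that differ by small in-frame exons in the part of the protein that is cut by the proteases Oma1 and Yme1l1. Of these, 2 were in coding transcripts with a mean of at least 1 FPKM in a group while another such transcript skipped them. They are printed because their use is what separates the measured forms, with the exon in capitals, 12 bases of the neighbouring exons in lower case, 5′ to 3′ on the coding strand, read from GENCODE M21 transcripts (GRCm38).
Opa1 54-base exon, chr16:29588823-29588876, plus strand: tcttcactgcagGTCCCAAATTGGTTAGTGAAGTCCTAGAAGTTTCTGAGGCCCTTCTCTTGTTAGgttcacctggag
Opa1 111-base exon, chr16:29597586-29597696, plus strand: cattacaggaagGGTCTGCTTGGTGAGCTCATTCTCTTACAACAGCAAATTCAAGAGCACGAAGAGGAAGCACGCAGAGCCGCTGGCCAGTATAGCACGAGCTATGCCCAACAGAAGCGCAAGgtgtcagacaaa
The 54-base exon adds 18 codons and was in 3 of the 7 transcripts that reach across it. Those carried 9.12%, 10.6% and 8.20% of the FPKM of the 7 in wildtype and 16.2%, 14.4% and 10.3% in *Pou4f3(Δ/+)*, where replicate 3 lay inside the wildtype range. The 111-base exon adds 37 codons, and its share was 31.4%, 24.5% and 20.3% in wildtype and 35.7%, 25.01% and 19.4% in *Pou4f3(Δ/+)*. These ranges overlapped fully. *Opa1-206* (960 codons), which has neither exon, was the most abundant transcript, with 66.4% (wildtype) and 62.6% (*Pou4f3(Δ/+)*) of the gene's FPKM (log2 fold change -0.01, SE 0.14, adjusted p = 0.999, edgeR on transcripts).

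Among the fission genes, *Dnm1l* (ENSMUSG00000022789, chromosome 16 from 16312230 to 16358959, minus strand), the dynamin that constricts mitochondria, was at 163, 179 and 179 CPM in wildtype and 173, 159 and 176 CPM in *Pou4f3(Δ/+)*. Apart from *Pou4f3(Δ/+)* replicate 2, which was the lowest, the *Pou4f3(Δ/+)* values lay within the wildtype range. Its log2 fold change was -0.03 (SE 0.08, adjusted p = 0.922, edgeR), with an interval from -13.4% to 10.1%.

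The files list 3 coding transcripts of *Dnm1l*, all measured above 1 FPKM, and 3 small exons are each in 1 of them. The exons are shown because they are the known tissue-specific inserts of this dynamin, 1 in the GTPase domain and 2 in the variable region; capitals mark the exon and lower case the 12 neighbouring bases in the transcript that holds it.
Dnm1l 39-base exon, chr16:16342697-16342735, minus strand: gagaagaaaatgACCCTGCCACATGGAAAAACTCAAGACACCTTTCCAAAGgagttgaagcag
Dnm1l 78-base exon, chr16:16318764-16318841, minus strand: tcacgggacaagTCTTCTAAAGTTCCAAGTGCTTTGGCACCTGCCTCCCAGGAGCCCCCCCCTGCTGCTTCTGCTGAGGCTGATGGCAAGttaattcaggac
Dnm1l 33-base exon, chr16:16318445-16318477, minus strand: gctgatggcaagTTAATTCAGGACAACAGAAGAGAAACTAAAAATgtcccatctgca
*Dnm1l-201*, with none of them and 699 codons, carried 57.2% (wildtype) and 58.5% (*Pou4f3(Δ/+)*) of the gene's FPKM (22.6, 24.0 and 27.1 against 24.8, 24.7 and 23.9 FPKM). The 78-base and 33-base exons, which add 26 and 11 codons, lie side by side in *Dnm1l-203* (587 codons). That transcript also lacks coding exons of *Dnm1l-201*, with 16 against 18 in all, so its share is not that of these inserts alone. It made up 31.7%, 31.0% and 29.8% in wildtype and 36.8%, 27.8% and 25.2% in *Pou4f3(Δ/+)*, whose spread was the wider. The 39-base exon, of 13 codons, is in *Dnm1l-202*, at 11.8%, 15.2% and 8.75% in wildtype and 5.25%, 8.72% and 20.7% in *Pou4f3(Δ/+)*. For *Dnm1l-203* and *Dnm1l-202* the *Pou4f3(Δ/+)* samples reached both below and above the wildtype samples.

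*Fis1* (ENSMUSG00000019054, chromosome 5 from 136953275 to 136966234, plus strand), a tail-anchored adaptor of the outer membrane, was at 86.9, 83.4 and 89.1 CPM in wildtype and 78.8, 90.7 and 88.7 CPM in *Pou4f3(Δ/+)*. The highest and the lowest sample were both *Pou4f3(Δ/+)*. The log2 fold change was -0.01 (SE 0.08, adjusted p = 0.987, edgeR), with an interval from -12.1% to 12.7%. *Fis1-201*, which encodes 152 codons, held 91.3% of its FPKM in wildtype and 92.4% in *Pou4f3(Δ/+)* (log2 fold change 0.01, SE 0.09, adjusted p = 0.999, edgeR on transcripts).

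*Mff* (ENSMUSG00000026150, chromosome 1 from 82724890 to 82752394, plus strand), the main receptor for Dnm1l on the outer membrane, was at 123, 112 and 114 CPM in wildtype and 129, 118 and 122 CPM in *Pou4f3(Δ/+)*. All *Pou4f3(Δ/+)* samples were above wildtype replicates 4 and 5, and replicate 1 was above all 3. The log2 fold change was 0.08 (SE 0.07, adjusted p = 0.798, edgeR), with an interval from -6.02% to 18.2%.

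*Mff* had the most even mixture of forms: its leading transcript, *Mff-202* (291 codons), held 23.5% of its FPKM in each group. Its coding transcripts differ in 3 in-frame exons, among other parts, printed here in capitals between 12 bases of the neighbouring exons because the only *Mff* transcript with an unadjusted p under 0.05 lacks the longest of them.
Mff 75-base exon, chr1:82737013-82737087, plus strand: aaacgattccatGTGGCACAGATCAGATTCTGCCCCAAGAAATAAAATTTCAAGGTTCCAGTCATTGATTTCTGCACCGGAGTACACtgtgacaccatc
Mff 159-base exon, chr1:82741818-82741976, plus strand: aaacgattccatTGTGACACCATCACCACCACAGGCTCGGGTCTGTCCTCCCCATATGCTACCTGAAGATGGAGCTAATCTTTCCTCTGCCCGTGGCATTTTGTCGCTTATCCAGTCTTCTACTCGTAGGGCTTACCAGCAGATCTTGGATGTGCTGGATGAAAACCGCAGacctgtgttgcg
Mff 60-base exon, chr1:82747083-82747142, plus strand: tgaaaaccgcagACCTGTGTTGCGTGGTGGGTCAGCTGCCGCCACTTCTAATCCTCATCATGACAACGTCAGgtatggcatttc
*Mff-208* (238 codons), which skips the 159-base exon and keeps the 60-base exon, was at 2.89, 3.84 and 1.93 FPKM in wildtype and 6.19, 6.15 and 3.85 FPKM in *Pou4f3(Δ/+)*. The *Pou4f3(Δ/+)* samples were all higher, replicate 3 barely so. The log2 fold change was 0.91 (SE 0.33, unadjusted p = 0.0310, adjusted p = 0.999, edgeR on transcripts), from 54.5 to 180 counts per sample, and it ran from 0.70 to 1.15 with each sample left out. *Mff-201* (239 codons), which has the same pattern of these 3 exons, was more abundant, at 9.78, 9.40 and 14.4 FPKM in wildtype and 8.98, 9.79 and 11.3 FPKM in *Pou4f3(Δ/+)*. Its groups overlapped, with a log2 fold change of -0.17 (SE 0.21, unadjusted p = 0.463, edgeR on transcripts). Among the 10 transcripts that reach across the 159-base exon of 53 codons, those that hold it had 40.9%, 44.4% and 40.0% of their summed FPKM in wildtype and 45.1%, 42.5% and 37.5% in *Pou4f3(Δ/+)*. Counted in the same way, the share was 62.0% to 67.6% for the 60-base exon of 20 codons (11 transcripts reach across it) and 5.83% to 8.16% for the 75-base exon of 25 codons (10 transcripts) over the 6 samples. The groups overlapped for all 3 exons.

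**Figure D2:**
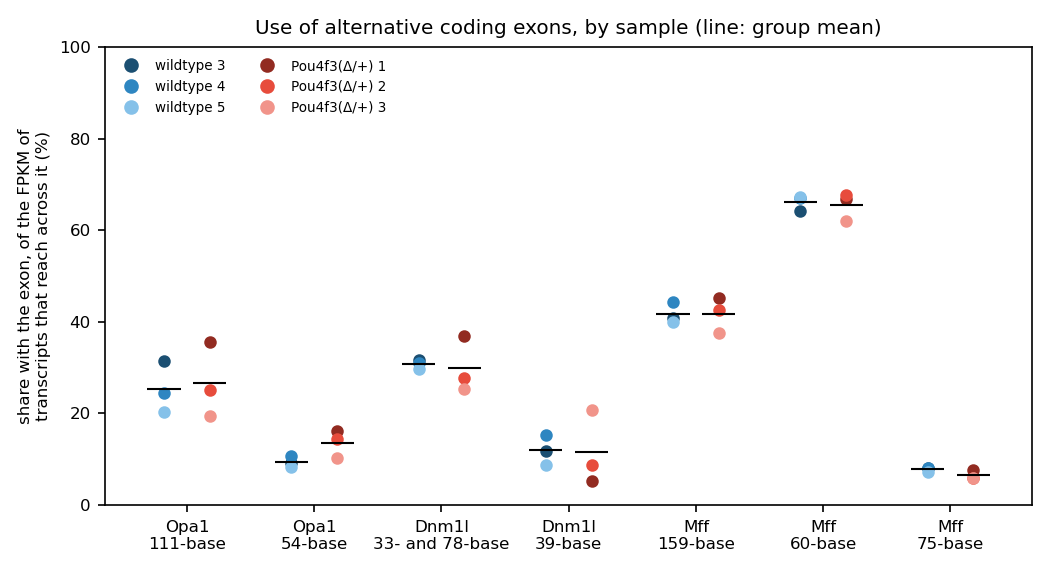
Share of FPKM (y axis, %) from the transcripts that hold an alternative coding exon, out of all transcripts of the gene that reach across it, for *Opa1*, *Dnm1l* and *Mff* (x axis) in each wildtype (blue) and *Pou4f3(Δ/+)* (red) sample; lines are group means (n = 3). The groups overlap for every exon, and the *Dnm1l* shares spread from 5.25% to 36.8%, more widely in *Pou4f3(Δ/+)* than in wildtype.

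Across all 10 genes, 42 of the 83 transcripts had enough counts to be tested, and 0 of them had an adjusted p under 0.05 (edgeR, and 0 by DESeq2), as for all 38347 transcripts tested, of which 0% passed (0 transcripts). Without adjustment 2 had p under 0.05, *Mff-208* and *Mfn2-204*, beside 4.14% of all transcripts tested. In CPM, the groups did not overlap for 6 of the 42, beside 10.7% of all transcripts. *Mfn2-204* (757 codons), with 95.1% of the *Mfn2* FPKM in wildtype and 94.3% in *Pou4f3(Δ/+)*, was at 22.5, 22.7 and 22.9 FPKM in wildtype and 20.3, 19.2 and 21.5 FPKM in *Pou4f3(Δ/+)*. Its log2 fold change of -0.16 (SE 0.07, unadjusted p = 0.0457, adjusted p = 0.999, edgeR on transcripts) followed that of the gene. No transcript's share of its gene differed by over 20 percentage points between the group means. The largest difference, chosen after its values were seen, was that of *Ppargc1a-204*, a transcript marked for nonsense-mediated decay, which was at 0 FPKM in each wildtype sample and in *Pou4f3(Δ/+)* replicate 2 but at 1.53 and 1.08 FPKM in *Pou4f3(Δ/+)* replicates 1 and 3. The gene's other transcript marked for nonsense-mediated decay, *Ppargc1a-201*, went the other way. It was at 1.07, 0.62 and 1.07 FPKM in wildtype and at 0.26, 0.56 and 0 FPKM in *Pou4f3(Δ/+)*. Counts of such short-lived or overlapping forms are estimates that divide shared reads, so they are less certain than the gene sums.

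Among the biogenesis genes, *Nrf1* (ENSMUSG00000058440, chromosome 6 from 30047988 to 30153458, plus strand), the nuclear respiratory factor, had the highest fold change of the 10. It was at 44.4, 46.2 and 43.3 CPM in wildtype and at 52.0, 51.6 and 43.3 CPM in *Pou4f3(Δ/+)*. Replicates 1 and 2 were above all wildtype samples, while replicate 3 was level with the lowest wildtype sample. The group means were 44.6 ± 1.45 and 49.0 ± 4.94 CPM (SD, n = 3 each), so that the log2 fold change was 0.13 (SE 0.09, unadjusted p = 0.191, adjusted p = 0.731, edgeR), with an interval from -5.45% to 27.4%. The value rested on the samples that stood apart: without *Pou4f3(Δ/+)* replicates 1 and 2 it was -0.04 (SE 0.11, edgeR), and without *Pou4f3(Δ/+)* replicate 3 it was 0.22 (SE 0.08, unadjusted p = 0.0262, adjusted p = 0.222, edgeR). In that last fit the unadjusted p of *Mfn2* was also under 0.05 (adjusted p = 0.281, edgeR), as it was for 17.4% of all genes tested. *Nrf1-210* (503 codons) held 52.8% of the *Nrf1* FPKM in wildtype and 48.7% in *Pou4f3(Δ/+)* (log2 fold change 0.04, SE 0.15, adjusted p = 0.999, edgeR on transcripts).

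*Ppargc1a* (ENSMUSG00000029167, chromosome 5 from 51454250 to 51567726, minus strand), the co-activator at the head of the biogenesis program, was at 53.9, 60.8 and 64.5 CPM in wildtype and 55.7, 51.6 and 66.9 CPM in *Pou4f3(Δ/+)*. The groups overlapped, with *Pou4f3(Δ/+)* samples at both ends. Its log2 fold change was -0.04 (SE 0.11, adjusted p = 0.942, edgeR), with an interval from -18.8% to 16.3%, and *Ppargc1a-203* (797 codons) held 90.5% of its FPKM in wildtype and 88.3% in *Pou4f3(Δ/+)*.

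*Tfam* (ENSMUSG00000003923, chromosome 10 from 71225464 to 71238280, minus strand), the packaging factor of mitochondrial DNA, was at 35.5, 36.6 and 37.6 CPM in wildtype and 38.1, 41.0 and 34.6 CPM in *Pou4f3(Δ/+)*. The *Pou4f3(Δ/+)* values surrounded those of wildtype. The log2 fold change was 0.05 on the count scale (SE 0.09, adjusted p = 0.899, edgeR), with an interval from -10.3% to 19.6%, but its sign turned on the FPKM scale, to -0.15 (adjusted p = 0.824, limma-trend on log2(FPKM + 0.5)). Transcripts shorter than 1000 bases gave 63.1% of the *Tfam* FPKM and only 18.2% of its counts. The transcript with the largest share of FPKM was such a form, *Tfam-205* of 472 bases (51.2% of the FPKM in wildtype, 44.4% in *Pou4f3(Δ/+)*; log2 fold change -0.34, SE 0.35, adjusted p = 0.999, edgeR on transcripts), so the summed FPKM of *Tfam* leaned on it.

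Nrf1 binds a palindromic element whose core is CGCATGCG. That core, searched on both strands at once since it reads the same on each, was in 615 of 32851 RefSeq promoter windows of 250 bases before to 50 after a start (1.87%). All 10 genes matched at least 1 of 16 windows, and the core was in 1, that of *Opa1*. The 150 bases before the *Opa1* start are given with the core in capitals, since they join a factor and a fusion gene of the same set.
Opa1 promoter, chr16:29579184-29579333 (GRCm38.p6, plus strand): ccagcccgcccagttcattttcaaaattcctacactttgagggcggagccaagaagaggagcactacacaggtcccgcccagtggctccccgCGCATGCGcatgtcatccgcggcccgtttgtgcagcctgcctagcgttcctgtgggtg
The core began 58 bases before the start. A match of letters is not a measured binding site.

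*Pink1* (ENSMUSG00000028756, chromosome 4 from 138313409 to 138326307, minus strand), the kinase that accumulates on depolarised mitochondria, was at 162, 136 and 160.4 CPM in wildtype and 132, 145 and 159 CPM in *Pou4f3(Δ/+)*. The groups overlapped, with wildtype replicate 4 among the *Pou4f3(Δ/+)* values. The log2 fold change was -0.07 (SE 0.10, adjusted p = 0.858, edgeR), with an interval from -18.6% to 11.04%. Single samples moved it, to -0.0060 without *Pou4f3(Δ/+)* replicate 1 and to -0.14 without wildtype replicate 4. *Pink1-201* (580 codons) held 99.5% of its FPKM in wildtype and 99.2% in *Pou4f3(Δ/+)*.

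**Figure D3:**
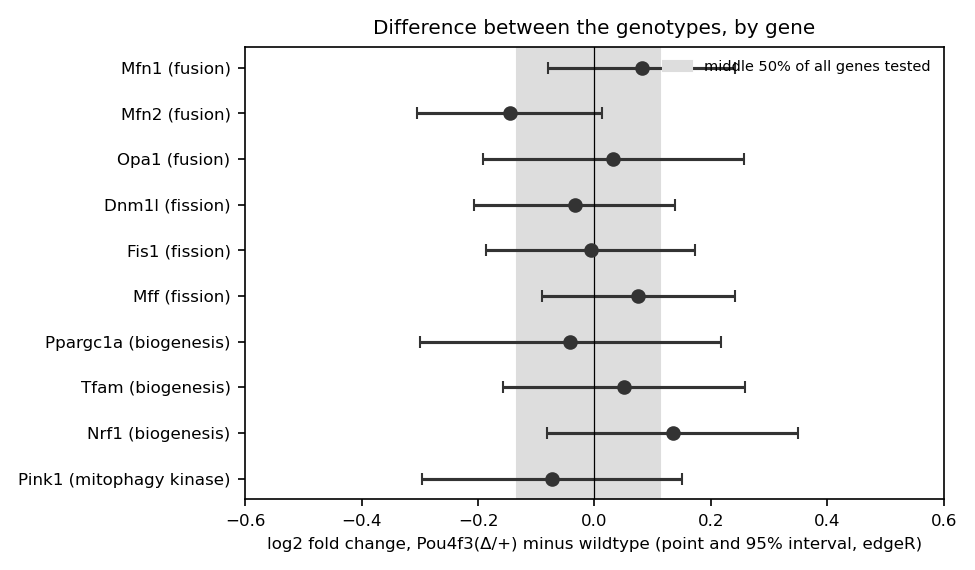
Log2 fold change of each gene, *Pou4f3(Δ/+)* minus wildtype (x axis), with its 95% interval from edgeR (3 samples per genotype); the grey band holds the middle 50% of all 17136 genes tested, from -0.13 to 0.11. Every interval crosses 0, and *Mfn2*, at -0.15, and *Nrf1*, at 0.13, lie at the ends.

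Per transcript length, the fission genes and *Pink1* were more abundant than the fusion genes, and *Ppargc1a* was the least abundant of the 10. Summed FPKM averaged 108 for *Fis1*, 84.5 for *Mff*, 62.8 for *Pink1* and 42.5 for *Dnm1l* over the 6 samples. Each of these genes was above the next in that order in every sample, with ranges that did not overlap. They were followed by *Mfn2* (22.7), *Mfn1* (22.5), *Opa1* (21.9), *Tfam* (19.8) and *Nrf1* (16.9), whose neighbours in the order did not differ beyond their spread: *Mfn2* was above *Mfn1* in 3 of the 6 samples only. *Ppargc1a*, at 8.15 to 11.2 FPKM, was below *Nrf1* in all 6 samples. The order of *Mff* and *Tfam* depends on short transcripts, since forms under 1000 bases gave 32.0% of the *Mff* FPKM against 12.2% of its counts, and all of the *Fis1* FPKM came from such forms. *Tfam-201*, of 4167 bases, was at 6.64 to 7.91 FPKM, below *Ppargc1a*. The last place of *Ppargc1a* therefore also depends on the short *Tfam* forms. Between samples, *Mfn1* was the steadiest gene (a coefficient of variation of 4.23% over the 6 CPM values) and *Ppargc1a* the least steady (10.4%).

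**Figure D4:**
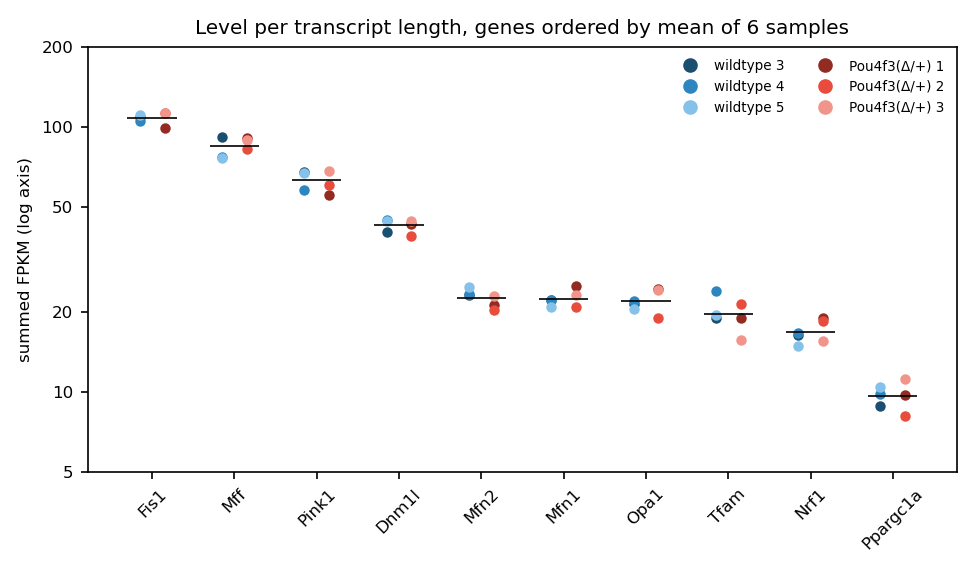
Summed FPKM of each gene (y axis, log scale) in the 3 wildtype (blue) and 3 *Pou4f3(Δ/+)* (red) samples, with genes ordered by their mean over the 6 samples (line). The means fall from 108 FPKM for *Fis1* to 9.69 FPKM for *Ppargc1a*, and the genes from *Mfn2* to *Nrf1* overlap with their neighbours.

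Genes annotated at the same loci had few counts: *Gm28941*, on the strand of *Mff*, had 12 to 30 counts beside 1619 to 2273 for *Mff*, and *C430014B12Rik*, on the other strand, had 4.01 to 9.41. The listed genes that overlap *Mfn2*, *Ppargc1a*, *Nrf1* and *Pink1* had at most 3 counts in a sample. A gene antisense to *Dnm1l* is annotated in GENCODE M21 but was not analysed here. Whether counting used the strand is not given in the sources used here, so reads of such partners could not be told apart. The counts of the partners analysed here were small, and no count is given here for the one at *Dnm1l*.

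The other genes of the same pathways gave a like picture. Of 27 further fusion, fission and membrane shaping genes, 26 were tested, 0 had an adjusted p under 0.05 and 1 had an unadjusted p under 0.05 (edgeR), beside 7.64% of all genes tested. This was *Mief1*, a receptor that recruits Dnm1l, at 6.46, 6.86 and 6.28 FPKM in wildtype and 8.83, 7.37 and 7.77 FPKM in *Pou4f3(Δ/+)*. Every *Pou4f3(Δ/+)* sample was higher, with a log2 fold change of 0.28 (SE 0.10, unadjusted p = 0.0165, adjusted p = 0.643, edgeR). The log2 fold change of *Mief1* was 0.20 without *Pou4f3(Δ/+)* replicate 1 (SE 0.10, unadjusted p = 0.0740, edgeR). Without *Pou4f3(Δ/+)* replicates 1 and 2 it was 0.22. The median of the list was -0.02, with 12 genes higher and 14 lower. The Opa1-cutting proteases *Oma1* (log2 fold change -0.04, SE 0.12) and *Yme1l1* (0.10, SE 0.07) did not pass the test. Nor did *Gdap1*, a fission factor of nerve and Schwann cells, whose value was -0.33 (SE 0.17, unadjusted p = 0.0844, edgeR), with 10.3, 11.6 and 10.6 FPKM in wildtype and 8.17, 6.43 and 11.3 FPKM in *Pou4f3(Δ/+)*. Its 2 low samples were *Pou4f3(Δ/+)* replicates 1 and 2. The 3 Schwann cell markers analysed here, none at 0, summed to 572 to 741 FPKM in wildtype and 554 to 749 FPKM in *Pou4f3(Δ/+)*, which overlapped.

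Of 33 further genes of biogenesis and mitochondrial DNA upkeep, all 33 were tested, 0 had an adjusted p under 0.05 and 1 had an unadjusted p under 0.05, *Sirt1* (edgeR), again beside 7.64% of all genes. *Sirt1*, a deacetylase that acts on Ppargc1a, was at 12.6, 12.1 and 11.3 FPKM in wildtype and 14.9, 16.0 and 13.1 FPKM in *Pou4f3(Δ/+)*, all of them higher. Its log2 fold change was 0.29 (SE 0.10, unadjusted p = 0.0171, adjusted p = 0.643, edgeR), and 0.11 (SE 0.12, edgeR) without *Pou4f3(Δ/+)* replicates 1 and 2. The list median was 0.03, with 19 genes higher and 14 lower. The fold changes of the list ran from -0.19 to 0.42. Of the relatives and partners of Ppargc1a, *Ppargc1b* was at -0.01 (SE 0.23), *Esrra* at -0.02 (SE 0.09) and *Gabpa* at 0.09 (SE 0.07). Of the genes that copy and transcribe mitochondrial DNA, *Tfb2m* was at 0.05 (SE 0.10) and the polymerase *Polg* at 0.11 (SE 0.08).

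Of the 23 mitophagy genes analysed here, all 23 were tested and 0 had an adjusted or an unadjusted p under 0.05 (edgeR). Their median was 0.01, with 13 higher and 10 lower. The mitophagy receptors *Bnip3* (-0.16, SE 0.11) and *Bnip3l* (0.07, SE 0.08) did not pass the test. Over the 3 lists, 9 of 82 genes tested had groups that did not overlap, beside the 12.7% of all genes given above.

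**Figure D5:**
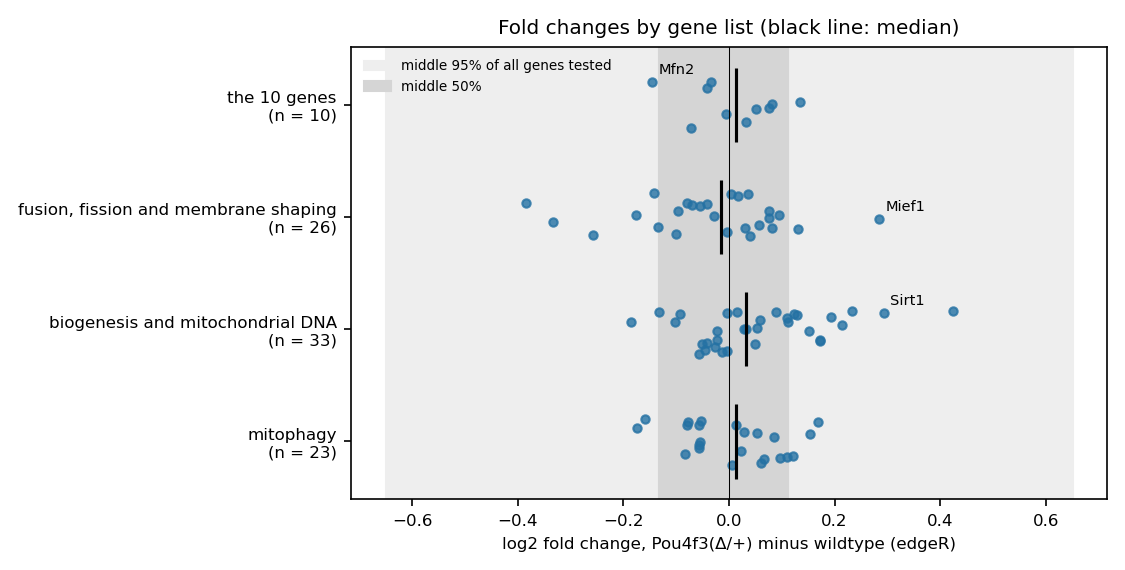
Log2 fold changes, *Pou4f3(Δ/+)* minus wildtype (x axis, edgeR), of the 10 genes and of the 3 lists of other pathway genes (points are genes, spread vertically for sight; black lines are medians), over bands that hold the middle 95% (-0.65 to 0.65) and 50% of all genes tested. The list medians lie between -0.02 and 0.03, and *Mfn2*, *Mief1* and *Sirt1* are named.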

How the data were processed

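For each cochlear sample the authors deposited expected counts per transcript (estimates that need not be whole, not normalized) and FPKM per transcript (per length and per counted fragments). The submitters' processing notes name DESeq2 and the mouse build mm8. The aligner and counter are not given in the sources used here. All 83 transcripts of the 10 genes were found in GENCODE M21 (GRCm38), from which coordinates were taken, and for 80 of them the length in the files is the genomic span.

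Counts were summed per gene symbol, rounded and tested with edgeR 4.0.16 in R 4.3.3 (filterByExpr, minimum count 10 and minimum total count 15; TMM; quasi-likelihood test; no covariates; Benjamini-Hochberg over all genes, threshold 0.05), and likewise per transcript. Standard errors are the log2 fold change over the square root of F. Alternatives used DESeq2 1.42.0, its size factors, limma 3.58.1 on log2(FPKM + pseudocount), no filter and samples left out. Scripts were tested on simulated data. No samples were alike within counting error (chi-square per degree of freedom of at least 7.27).

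The members, gene lists and rule for named genes were chosen with earlier results of these data known. That rule takes all 10 genes, their main transcripts, transcripts or pathway genes with an unadjusted p under 0.05, and a list of 12 pathway genes. Of the listed genes, 2 are not reported here and were left out of their lists.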

Additional observations from a re-analysis of the deposited data

How the results depend on the processing

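Under the 13 alternatives, 0 of the 10 genes and 0 of the other pathway genes were called. Of the transcripts of the 10 genes, 0 were called under the 8 alternatives run on transcripts. The median log2 fold change of the 10 stayed between -0.04 and 0.05. The number of all genes called did move, from 0 to 64 with DESeq2, 1 with limma-trend at a pseudocount of 0.1, 9 without a filter, 6 without *Pou4f3(Δ/+)* replicates 1 and 2 together, and between 0 and 193 with each sample left out, highest without *Pou4f3(Δ/+)* replicate 3. With each sample left out, between 0 and 2 of the 10 had an unadjusted p under 0.05. *Mfn2* stayed negative throughout (-0.17 to -0.08), and *Mfn1* (0.063 to 0.13) and *Mff* (0.040 to 0.12) positive. With each sample left out, *Opa1* ran from -0.057 to 0.13, *Dnm1l* from -0.079 to 0.0091, *Fis1* from -0.046 to 0.054, *Ppargc1a* from -0.15 to 0.036 *Tfam* from -0.0082 to 0.12, *Nrf1* from 0.088 to 0.22 and *Pink1* from -0.14 to -0.0060. *Tfam* was at -0.15, -0.15 and -0.14 in limma-trend with pseudocounts of 0.5, 0.1 and 1. Without *Pou4f3(Δ/+)* replicates 1 and 2 together, *Dnm1l* was at 0.022, *Fis1* at 0.039, *Ppargc1a* at 0.16, *Tfam* at -0.077, *Nrf1* at -0.043 and *Pink1* at 0.060; the cause was not tested. No paired analysis was possible because the groups share only replicate number 3. With 3 samples per genotype, the data leave room for changes inside the interval given for each gene.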
